A study of Mus musculus with 6 samples.

Results

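Kinesins are motor proteins that hydrolyse ATP to walk along microtubules or to shorten them, and their genes carry the symbol Kif in the mouse. The genes described here are those whose annotated symbol is Kif followed by a number and at most 1 letter, which gave 37 of the 18193 genes measured by probe sets with exactly 1 gene. Where a gene had several probe sets, the one with the highest 6-array mean stood for it. They were divided into 11 mitotic kinesins, 13 transport kinesins and 13 others. The mitotic class holds Kif2c, Kif4, Kif11, Kif14, Kif15, Kif18a, Kif18b, Kif20a, Kif20b, Kif22 and Kif23. The transport class holds Kif1a, Kif1b, Kif1c, Kif3a, Kif3b, Kif3c, Kif5a, Kif5b, Kif5c, Kif13a, Kif13b, Kif16b and Kif17.

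Tumour epithelial cells were sorted from chemically induced benign skin papillomas of mice, by Epcam and alpha6 integrin and without cells carrying CD45, CD31 or CD140a. The Sox2cKO group came from K14CREER:SOX2fl/fl mice, in which a tamoxifen-activated Cre expressed from the keratin 14 promoter deletes the floxed Sox2 gene, and the CTRL group came from mice labelled only as controls. Both groups had 3 arrays and both had received tamoxifen for 1 week. The labels used here give no age, strain or full control genotype, and RNA was read on Affymetrix mouse expression arrays.

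Mitotic kinesins act for a short part of the cell cycle: they separate the spindle poles, move chromosomes to the spindle equator and build the midzone where the daughter cells part. Their genes are transcribed mainly late in the cycle, and a DNA element called the cell cycle genes homology region, which is bound by the DREAM and MuvB complexes, is known in many promoters of that kind. Transport kinesins carry vesicles, organelles, RNA and ciliary components, and are made in dividing and resting cells alike.

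Because the mitotic members moved together between arrays, their promoters were searched for the core of that element, TTTGAA, and for the CCAAT box, on both strands. Sequences were those of RefSeq, assembly GRCm38.p6, covering 250 bases before and 50 bases after each gene's start; 31 of the 37 genes were matched. The letters TTTGAA occurred in 9 of 10 mitotic kinesin genes, in 1 of 10 transport genes and in 2 of 11 others, against 17.9% of all 32851 promoters in the table. Within 75 bases before to 25 bases after the start they occurred in 7 of the 10 mitotic genes, 1 of 10 transport genes and 2 of 11 others, and in 5.24% of all promoters. For CCAAT the whole promoter held a match in 6 of 10 mitotic, 3 of 10 transport and 5 of 11 other genes, and in 37.4% of all promoters. The 2 motifs can share at most 1 letter, and such a match is a description of the letters, not evidence of a bound site. Kif18a was the mitotic gene without TTTGAA, and the matches of Kif2c and Kif14 lay 103 and 228 bases before the start.

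The windows of 100 bases are printed 5′ to 3′ on the strand of the gene for 6 mitotic genes that were tested and had the letters near the start. The transport genes Kif3a and Kif3b, which lack TTTGAA, are printed as the contrast. They do not stand for their class, as they are the 2 of 10 transport genes with CCAAT in this window. Kif1a, the transport gene with TTTGAA in such a window (44 bases before a start), is not printed. Capitals mark TTTGAA and CCAAT, which read TTCAAA and ATTGG where the match is on the opposite strand.
Kif11: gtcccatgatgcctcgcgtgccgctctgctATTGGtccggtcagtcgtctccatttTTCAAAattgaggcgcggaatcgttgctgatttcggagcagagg
Kif22: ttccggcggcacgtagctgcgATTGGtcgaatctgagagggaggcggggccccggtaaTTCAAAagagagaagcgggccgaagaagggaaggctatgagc
Kif4: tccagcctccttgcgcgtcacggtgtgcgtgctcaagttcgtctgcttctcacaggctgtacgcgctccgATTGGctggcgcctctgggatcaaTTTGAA
Kif18b: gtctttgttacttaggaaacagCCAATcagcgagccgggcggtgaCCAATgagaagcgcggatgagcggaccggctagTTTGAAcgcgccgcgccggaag
Kif20b: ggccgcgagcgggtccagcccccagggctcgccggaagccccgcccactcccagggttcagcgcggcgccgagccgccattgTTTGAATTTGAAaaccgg
Kif23: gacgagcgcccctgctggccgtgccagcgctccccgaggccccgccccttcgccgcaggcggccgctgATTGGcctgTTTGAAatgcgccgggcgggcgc
Kif3a: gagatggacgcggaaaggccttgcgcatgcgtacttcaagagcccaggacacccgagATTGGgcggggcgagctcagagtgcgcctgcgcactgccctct
Kif3b: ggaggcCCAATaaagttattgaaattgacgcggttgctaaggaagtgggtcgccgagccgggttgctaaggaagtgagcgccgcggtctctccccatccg

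On GRCm38.p6 these windows are chr19:37376307-37376406 (plus strand) for Kif11, chr7:127042396-127042495 (minus strand) for Kif22 and chrX:100625990-100626089 (plus strand) for Kif4. Those of Kif18b, Kif20b and Kif23 are chr11:102925100-102925199 (minus strand), chr19:34922283-34922382 (plus strand) and chr9:61946775-61946874 (minus strand). Kif3a is shown at chr11:53567294-53567393 (plus strand) and Kif3b at chr2:153291341-153291440 (plus strand). The TTTGAA match began 19 bases before the start in Kif11 and 17 bases before it in Kif22, and at bases 3, 4 and 20 after the start in Kif23, Kif18b and Kif4, the start being base 1. In Kif20b 2 copies stood side by side, at bases 8 and 14.

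The deposited values are log2 intensities, 1 per probe set and array. Unspiked bacterial control probe sets averaged 3.30 to 3.44, so values near that level carry no transcript signal. A gene was tested where at least 3 of 6 arrays exceeded the 40th percentile of that array (4.90 to 4.94). Of the 37 kinesin genes 29 were tested: 9 mitotic, 12 transport and 8 others. Kif1a exceeded the percentile on 5 arrays and each of the others on all 6, so no member passed through 1 group alone. The 8 untested members were Kif2b, Kif5c, Kif6, Kif12, Kif14, Kif15, Kif27 and Kif28. Kif14, needed for cytokinesis, read 3.71 to 3.91 over the 6 arrays, and Kif15, which helps keep the spindle bipolar, read 4.58 to 5.08. Kif5c exceeded the percentile on 1 array of each group and read 5.76 on Sox2cKO replicate 2 against 4.43 to 5.03 on the others.

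The arrays differed in ways that bear on every comparison. Sox2 read 7.19, 8.31 and 8.18 in CTRL and 4.07, 4.63 and 3.23 in Sox2cKO, so the groups did not overlap. Of the 7 basal keratinocyte markers all 7 exceeded the percentile, with summed signals of 15.32 to 15.39 (log2) in CTRL and 15.33 to 15.45 in Sox2cKO. Of 6 endothelial markers 1 was detected. Of the genes behind the gate, Epcam read 11.07, 11.42 and 11.43 in CTRL and 11.24, 10.72 and 10.57 in Sox2cKO, a difference of -0.46. Itga6 (alpha6 integrin) differed by 0.09. Pecam1 (CD31) exceeded the percentile on 0 arrays and Ptprc (CD45) on 4. Pdgfra (CD140a) exceeded it on all 6, reading 5.52, 5.32 and 5.05 in CTRL and 5.49, 6.21 and 7.25 in Sox2cKO. All 8 measured fibroblast and pericyte markers were detected and read higher on average in Sox2cKO, with summed signals of 10.65 to 11.92 in CTRL and 11.86 to 13.82 in Sox2cKO, highest in replicate 3. Of the 8 measured leukocyte markers 7 were detected, at summed signals of 9.27 to 9.70 and 8.91 to 9.37. Melanocyte markers (6 of 6 detected) summed to 8.26 to 8.86 and 7.86 to 9.73, sebocyte markers (5 of 6) to 11.54 to 12.36 and 11.32 to 11.83, and neuron and Schwann cell markers (4 of 6) to 8.10 to 8.50 and 7.99 to 8.42. Suprabasal keratinocyte markers (7 of 7) summed to 15.11, 14.38 and 14.59 in CTRL and 15.22, 15.14 and 14.44 in Sox2cKO (replicates 1 to 3). All 7 read higher on average in Sox2cKO, with a median difference of 0.33. Xist, the RNA that coats the silenced X in female cells, read 12.03 and 11.85 in CTRL replicates 2 and 3 and 6.08 to 7.54 on the other 4 arrays, while the Y-linked gene Eif2s3y read 3.72 and 3.45 there and 9.52 to 9.67 elsewhere.

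Mitotic kinesin genes read lower on average in Sox2cKO in 9 of 9 tested members, by 1.08- to 1.42-fold, but none of them passed the test. Among all 13222 genes tested the mean was lower in Sox2cKO in 49.4%. The median log2 difference of the 9 genes was -0.25, against 0.00 over all genes, with differences from -0.50 to -0.11 and standard errors of 0.12 to 0.32 (n = 3 arrays per group). In limma, 0 of the 9 had an adjusted p under 0.05 (0% of all genes did) and 0 had an unadjusted p under 0.05 (2.68% of all genes); every adjusted p was 0.999. The same counts were 0 and 0 when limma was run with a trend and robust variances. Without Sox2cKO replicate 3, limma gave an unadjusted p under 0.05 for Kif2c (0.0285), Kif23 (0.0298), Kif20b (0.0434) and Kif11 (0.0461), and without CTRL replicate 1 for Kif2c (0.0363). None of these passed after adjustment, and leaving out any of the other 4 arrays gave 0 mitotic genes. Of all 13222 genes, 525 had an unadjusted p under 0.05 in limma without Sox2cKO replicate 3, and 637 without CTRL replicate 1. In RNA from a bulk sort, fewer dividing cells and less RNA per dividing cell cannot be told apart.

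Kif11, the motor that slides spindle microtubules apart to separate the poles, was the mitotic member whose groups did not overlap. Its log2 values were 8.24, 8.24 and 8.14 in CTRL and 7.92, 7.84 and 8.10 in Sox2cKO. All 3 Sox2cKO values lay below the lowest CTRL value, Sox2cKO replicate 3 only just. The log2 difference was -0.25 with a standard error of 0.12 and a 95% interval of -0.54 to 0.03. An exact permutation test, two-sided, gave p = 0.1, below which a design of this size cannot go. Of all genes, 3.12% had groups apart in this direction. The second probe set of Kif11 differed by -0.28 with groups apart as well, and the third by 0.06.

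Kif2c, which removes tubulin from microtubule ends at the kinetochore, had the largest difference of the class. It read 8.75, 9.62 and 9.11 in CTRL and 8.38, 8.50 and 9.10 in Sox2cKO. The values overlapped, since Sox2cKO replicate 3 exceeded CTRL replicate 1. The log2 difference was -0.50 (standard error 0.27, 95% interval -1.14 to 0.14), and its other tested probe sets gave -0.34 and 0.01.

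Kif23, Kif20a and Kif20b are motors of cytokinesis. Kif23, which forms the centralspindlin complex with Racgap1, read 9.10, 10.02 and 9.54 in CTRL and 8.93, 8.68 and 9.73 in Sox2cKO, a difference of -0.44. Kif20a, which brings the chromosomal passenger complex to the midzone, read 8.46, 8.99 and 8.65 against 8.43, 8.24 and 8.75, a difference of -0.23. Kif20b, its relative, read 7.64, 8.39 and 7.92 against 7.37, 7.44 and 8.14, a difference of -0.33. In each of these 3 genes Sox2cKO replicates 1 and 2 lay below every control, and Sox2cKO replicate 3 lay above CTRL replicates 1 and 3.

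Kif22 and Kif4 are motors bound to chromosomes. Kif22, which pushes chromosome arms away from the poles, read 9.91, 10.34 and 10.27 in CTRL and 9.87, 9.68 and 10.19 in Sox2cKO, a difference of -0.26, and its other probe sets gave -0.40 each. Kif4, which shapes chromosomes and sets midzone length together with Prc1, read 7.97, 8.32 and 8.14 against 7.96, 7.53 and 8.19, a difference of -0.25. In both genes Sox2cKO replicates 1 and 2 lay below every control and Sox2cKO replicate 3 lay above CTRL replicate 1; it lay above CTRL replicate 3 in Kif4 and below it in Kif22. Kif4 lies on the X chromosome. It read 8.32 and 8.14 on the 2 arrays with high Xist, and 8.19 on Sox2cKO replicate 3, where Xist was low.

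Kif18a and Kif18b, relatives that act at microtubule plus ends, had the smallest differences of the 9. Kif18a, which dampens chromosome oscillation at the spindle equator, read 6.58, 7.11 and 7.03 in CTRL and 6.53, 6.52 and 7.35 in Sox2cKO, a difference of -0.11. Kif18b, which limits astral microtubules, read 7.12, 7.85 and 7.39 against 7.05, 7.09 and 7.65, a difference of -0.19. In Kif18a the highest of the 6 values was Sox2cKO replicate 3, whereas in the other 8 mitotic members it was CTRL replicate 2.

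The 9 mitotic genes divided the arrays in nearly one way, and the division crossed the groups. CTRL replicates 2 and 3 and Sox2cKO replicate 3 were each above the gene's own 6-array mean in 9 of 9 genes. CTRL replicate 1 was above it in 1 gene (Kif11), and Sox2cKO replicates 1 and 2 in 0. For 8 of the 9 genes those 3 arrays were exactly the 3 highest, which was so for 7.31% of all genes tested, 0 of 12 transport and 0 of 8 other kinesins. The 3 arrays were picked after the values of these 9 genes were seen, so these shares describe the pattern and do not test it. The lowest array was Sox2cKO replicate 2 in 6 genes and Sox2cKO replicate 1 in 3. The SD within groups had a median of 0.35 for mitotic, 0.16 for transport and 0.16 for other kinesins, and 0.19 over all genes. The heat map of the tested genes shows both the division and its weakness in the other classes.

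**Figure D1:**
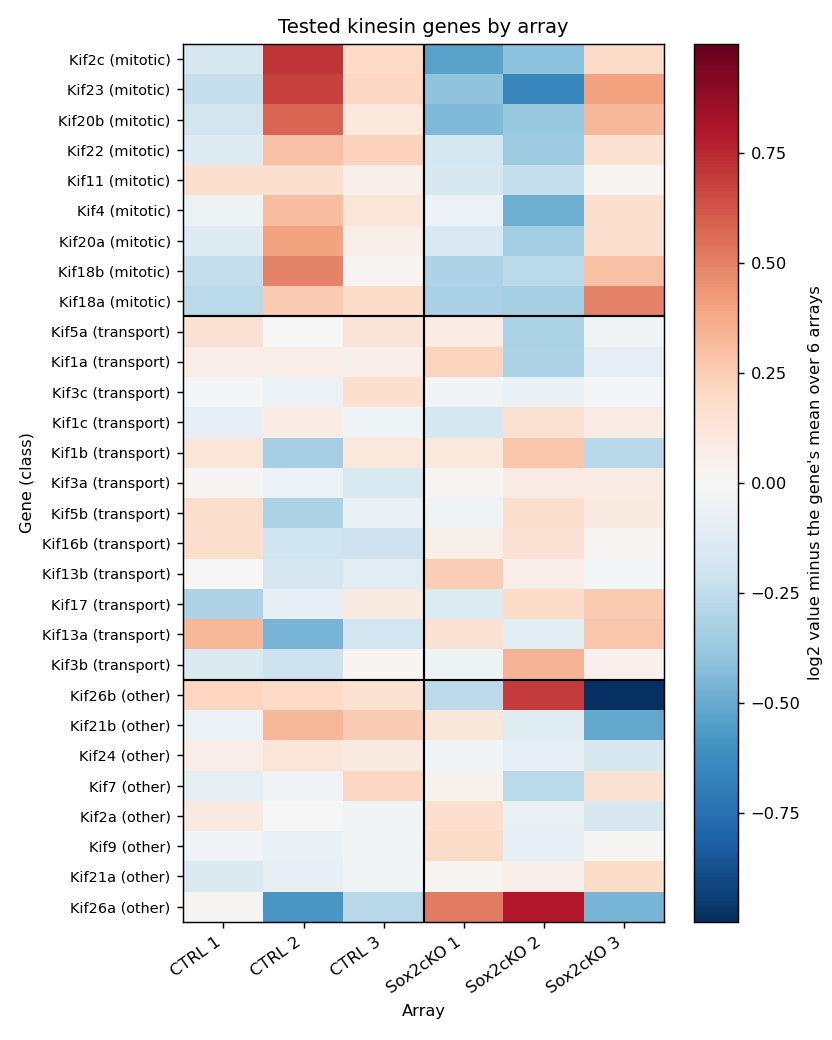
Heat map of the 29 tested kinesin genes (rows, by class and then by difference) on the 6 arrays (columns), coloured by the log2 value minus the gene's mean over the 6 arrays. In the mitotic block CTRL replicates 2 and 3 and Sox2cKO replicate 3 are above 0 in 9 of 9 genes, and Sox2cKO replicates 1 and 2 below 0.

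Averaged over the 9 mitotic genes, the log2 deviation from the 6-array mean was -0.14, 0.43 and 0.13 in CTRL replicates 1 to 3 and -0.28, -0.39 and 0.24 in Sox2cKO replicates 1 to 3. Same-numbered arrays deviated together across genes, so differences were also taken within each number. Sox2cKO was lower in 9 of 9 mitotic genes in number 1 (median -0.07, where 55.5% of all genes were lower), in 9 of 9 in number 2 (median -0.76, 47.7% of all genes) and in 3 of 9 in number 3 (median 0.10, 48.6%). The largest part of the class difference thus lay between CTRL replicate 2 and Sox2cKO replicate 2. Without CTRL replicate 2 the median was -0.16, without Sox2cKO replicate 2 it was -0.14, and without Sox2cKO replicate 3 it was -0.40. Every mitotic gene had its largest negative difference without Sox2cKO replicate 3: -0.75 for Kif23, -0.72 for Kif2c, -0.58 for Kif20b, -0.40 for Kif4 and Kif22, -0.36 for Kif20a and -0.33 for Kif11, with Kif18a and Kif18b at -0.38 and -0.39. The differences were nearest to 0 without CTRL replicate 2 for Kif2c (-0.27), Kif23 (-0.21), Kif20b (-0.13) and Kif20a (-0.080), and without Sox2cKO replicate 2 for Kif11 (-0.20), Kif22 (-0.14) and Kif4 (-0.073). Kif18a and Kif18b turned to 0.032 without Sox2cKO replicate 2 and 0.0073 without CTRL replicate 2. With Xist over 10 (log2) as a covariate, which in effect sets Sox2cKO against CTRL replicate 1 alone, 3 of 9 were lower and the median was 0.01. The fibroblast signal was highest and the mitotic values were also high in Sox2cKO replicate 3. The suprabasal keratinocyte signal was lower in CTRL replicates 2 and 3 and Sox2cKO replicate 3 (14.38, 14.59 and 14.44) than elsewhere (15.11 to 15.22). Those arrays were also the 3 highest in 8 of 9 mitotic genes. They were the 3 lowest in the suprabasal genes Krt1, Krt10, Ivl, Krtdap and Dsg1a, but not in Lor and Sbsn. In Sox2cKO replicate 3 Lor read 6.47, against 6.28 in CTRL replicate 1. Sbsn read 12.06 there, against 12.00 in Sox2cKO replicate 2. The part of the sex-linked pattern, the fibroblast RNA or the suprabasal signal in the kinesin values was not tested.

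Genes of proteins that work with the mitotic kinesins also read mostly lower in Sox2cKO. Of 16 tested partners 15 read lower on average and 1 higher in Sox2cKO, where 49.4% of all genes were lower. The median difference was -0.28. In limma 0 passed and 1 had an unadjusted p under 0.05 (2.68% of all genes). Nusap1, which bundles spindle microtubules, read 9.30, 9.33 and 9.15 in CTRL and 9.02, 8.93 and 8.77 in Sox2cKO, without overlap, a difference of -0.35. Groups were apart and lower in 2 of the 16 partners and in 3.12% of all genes. The spindle checkpoint gene Bub1b differed by -0.56 and Birc5, the survivin subunit of the chromosomal passenger complex, by -0.32, both with overlap. The partners' mean deviations were -0.05, 0.34 and 0.09 in CTRL and -0.15, -0.36 and 0.12 in Sox2cKO.

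General proliferation genes, which mark cells in cycle, also read mostly lower in Sox2cKO. Of 14 tested genes 13 read lower and 1 higher, where 49.4% of all genes were lower, with a median of -0.22. In limma 0 passed and 1 had an unadjusted p under 0.05 (2.68% of all genes). Tk1, the thymidine kinase of S phase, read 9.79, 10.33 and 9.90 in CTRL and 9.60, 9.48 and 9.41 in Sox2cKO, without overlap. Groups were apart and lower in 1 of the 14 genes and in 3.12% of all genes. Cdk1, the kinase that starts mitosis, differed by -0.34, and Mki67, the gene of the Ki-67 antigen, by -0.42. Mean deviations were -0.02, 0.24 and 0.09 in CTRL and 0.01, -0.39 and 0.08 in Sox2cKO. Sox2cKO replicate 1 thus read 0.01 for these genes and -0.28 for the mitotic kinesins, a contrast that was not tested.

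**Figure D2:**
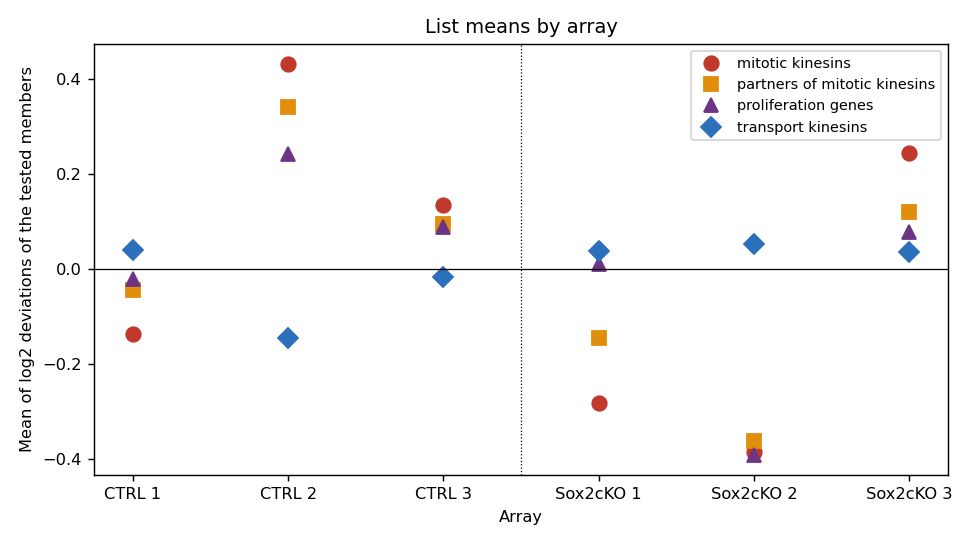
Mean log2 deviation of the tested members from their own 6-array means, by array, for the 9 mitotic kinesins, 16 partners, 14 proliferation genes and 12 transport kinesins; each point is 1 list on 1 array. The mitotic kinesins and their partners are highest in CTRL replicate 2 (0.43 and 0.34) and lowest in Sox2cKO replicate 2 (-0.39 and -0.36), and the transport kinesins stay between -0.15 and 0.05.

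Motors and motor partners outside the symbol rule were mixed. Of 8 tested genes 6 read lower and 2 higher, with a median of -0.05 and 0 passing in limma (0 at an unadjusted p under 0.05). Over all genes 49.4% were lower, 0% passed and 2.68% had an unadjusted p under 0.05. Cenpe, the kinetochore kinesin that tethers chromosomes to plus ends, read 8.71, 9.08 and 8.90 in CTRL and 8.54, 8.19 and 8.89 in Sox2cKO, a difference of -0.36. Kifc1, a minus-end-directed spindle motor, differed by -0.24 and Kifc3 by 0.29. Cenpe was lowest in Sox2cKO replicate 2 and highest in CTRL replicate 2, as most mitotic members were.

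Transport kinesin genes read slightly higher on average in Sox2cKO in 9 of 12 tested members and lower in 3, and none passed the test. Over all genes 50.6% were higher. The median log2 difference was 0.14, the differences ran from -0.18 to 0.22 and the standard errors from 0.11 to 0.22 (n = 3). In limma 0 of 12 had an adjusted p, and 0 an unadjusted p, under 0.05 (0% and 2.68% of all genes). The median was 0.06 without CTRL replicate 2, and with the Xist covariate it was -0.06, with 7 of 12 lower. The mean deviations of the class were 0.04, -0.15 and -0.02 in CTRL and 0.04, 0.05 and 0.03 in Sox2cKO, so CTRL replicate 2 stood lowest here and highest for the mitotic class. The difference between the classes was not tested.

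The kinesin complex of intraflagellar transport, the movement that builds cilia, is made of Kif3a, Kif3b and an accessory subunit. Kif3a read 7.46, 7.39 and 7.30 in CTRL and 7.48, 7.53 and 7.53 in Sox2cKO. It was the transport member with groups apart, narrowly so between Sox2cKO replicate 1 and CTRL replicate 1, and 2.73% of all genes had groups apart in this direction. The difference was 0.13 (standard error 0.11, 95% interval -0.13 to 0.39, exact permutation p 0.1), and the 3 other probe sets gave 0.08 to 0.14. Kif3b read 6.18, 6.12 and 6.34 in CTRL and 6.27, 6.66 and 6.37 in Sox2cKO, a difference of 0.22, with Sox2cKO replicate 1 inside the control range. Kif17, a homodimeric motor of dendrites and cilia, read 6.09, 6.31 and 6.49 against 6.26, 6.58 and 6.66, a difference of 0.20 with overlap. Kif3c, a partner of Kif3a in neurons, differed by -0.07.

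Among the vesicle carriers, Kif13b read 7.12, 6.95 and 7.01 in CTRL and 7.37, 7.19 and 7.10 in Sox2cKO, a difference of 0.20, and only Sox2cKO replicate 3 fell within the control range. Its relative Kif13a, which carries recycling endosomes and melanosome cargo, differed by 0.22 with a standard error of 0.22, and its 4 other probe sets gave 0.10 to 0.33. Kif16b, the early endosome motor, differed by 0.15, Kif1b by 0.07 and Kif1c by 0.04. Kif5b, the conventional kinesin heavy chain of most tissues, read 11.32, 10.82 and 11.07 in CTRL and 11.10, 11.31 and 11.23 in Sox2cKO, a difference of 0.14. The groups overlapped, the highest of the 6 values being that of CTRL replicate 1.

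The neuronal members were low. Kif5a, the heavy chain enriched in neurons, read 5.70, 5.55 and 5.68 in CTRL and 5.64, 5.24 and 5.52 in Sox2cKO, a difference of -0.18, and Kif1a, which carries synaptic vesicle precursors, read 4.80 to 5.34, a difference of -0.12. Both had their lowest value in Sox2cKO replicate 2. Single arrays moved several of these values: without CTRL replicate 2 the difference was 0.039 for Kif13a and 0.021 for Kif5b, and without CTRL replicate 1 it was 0.44 and 0.27. In that last setting Kif13a had an unadjusted p of 0.0499 in limma, with 637 of 13222 genes under 0.05. It did not pass after adjustment. The differences ranged from 0.097 (without CTRL replicate 1) to 0.32 (without Sox2cKO replicate 1) for Kif17 and from 0.084 (without CTRL replicate 3) to 0.28 (without CTRL replicate 1) for Kif16b. Kif3b read 0.11 and Kif5a -0.064 without Sox2cKO replicate 2, and Kif13b 0.12 without Sox2cKO replicate 1. Across the class 23 of 27 other tested probe sets had the sign of the gene's own difference, compared with 6 of 8 in the mitotic class and 2 of 6 among the others.

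**Figure D3:**
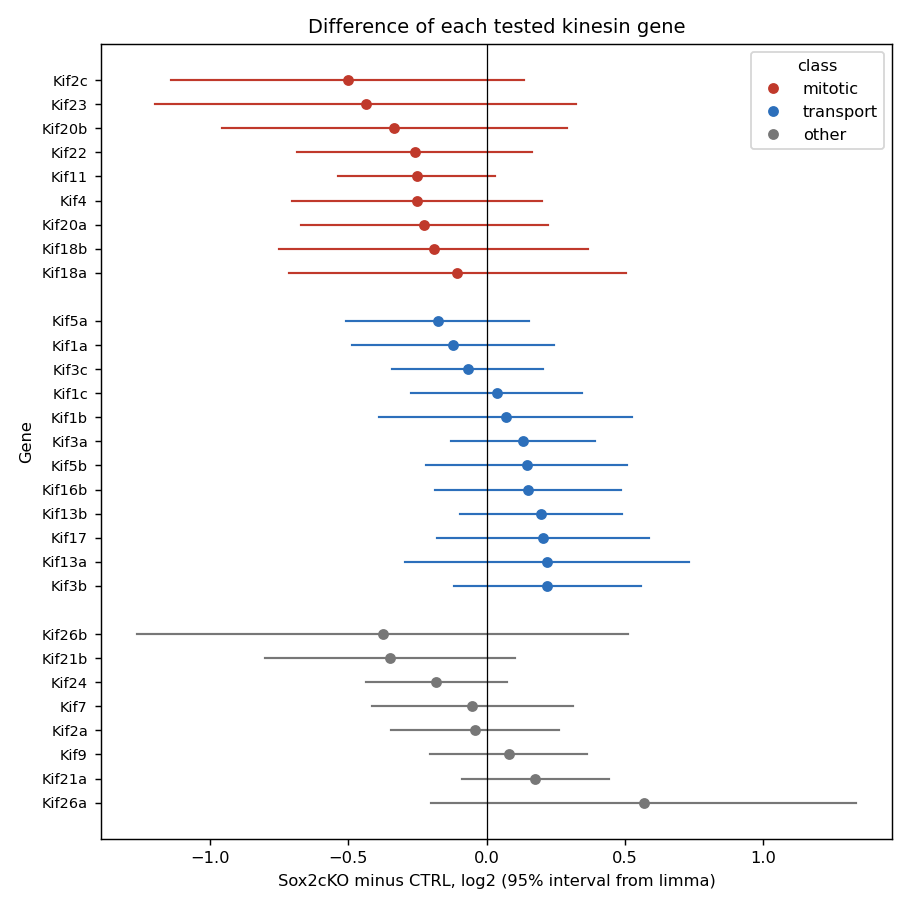
Log2 difference (Sox2cKO minus CTRL, x axis) of each of the 29 tested kinesin genes (y axis), with the 95% interval of limma, coloured by class. The 9 mitotic genes lie between -0.50 and -0.11 and the 12 transport genes between -0.18 and 0.22, and each interval includes 0.

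Genes of the transport machinery around these motors gave small differences. Of 14 tested cargo adaptors 10 read higher and 4 lower (median 0.08). Of 14 tested dynein and dynactin subunits, which move cargo the opposite way, 11 read higher and 3 lower (median 0.07). The share of higher genes was 50.6% over all genes. In limma 0 of either list passed, and 0 had an unadjusted p under 0.05 (0% and 2.68% of all genes). The scaffold genes Mapk8ip3 and Mapk8ip1 differed by -0.22 and 0.10, and Fez2 by 0.17. The dynein chain genes Dync1li1, Dynll2 and Dynlrb1 differed by 0.31, -0.22 and -0.28. Dynll2 had groups apart (9.92, 9.84 and 9.93 in CTRL, 9.61, 9.75 and 9.67 in Sox2cKO). Groups were apart and lower in 1 of the 14 dynein and dynactin genes and in 3.12% of all genes.

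The 8 other tested kinesins had no common direction, 3 higher and 5 lower, with a median of -0.05 and 0 passing in limma (0 at an unadjusted p under 0.05). Over all genes 49.4% were lower, 0% passed and 2.68% had an unadjusted p under 0.05. The largest differences and the largest spread belonged to Kif26a and Kif26b, atypical kinesins that bind microtubules without using ATP for movement. Kif26a read 7.64, 7.05 and 7.35 in CTRL and 8.15, 8.43 and 7.17 in Sox2cKO, a difference of 0.57 with a 95% interval of -0.20 to 1.34. Sox2cKO replicates 1 and 2 exceeded every control and replicate 3 did not. Without Sox2cKO replicate 3 the difference was 0.94 (unadjusted p = 0.00318 in limma, with 525 of 13222 genes under 0.05). The difference did not pass after adjustment. Without Sox2cKO replicate 2 it was 0.31, without CTRL replicate 2 it was 0.42, and with the Xist covariate it was 0.28. Kif26b read 8.004, 7.99 and 7.95 in CTRL, an SD of 0.03, and 7.53, 8.49 and 6.80 in Sox2cKO, an SD of 0.85. Its difference of -0.38 became -0.82 without Sox2cKO replicate 2 and 0.028 without Sox2cKO replicate 3. The difference of -0.82 had an unadjusted p of 0.00936 in limma, with 632 of 13222 genes under 0.05, and did not pass after adjustment. Each gene has a single probe set on the array with 1 gene.

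The paired motors Kif21a and Kif21b, which restrain microtubule growth, pointed opposite ways. Kif21a read 8.53, 8.60 and 8.65 in CTRL and 8.71, 8.73 and 8.86 in Sox2cKO, without overlap (2.73% of all genes in this direction). The difference was 0.17 (standard error 0.11, exact permutation p 0.1), and the other tested probe set of Kif21a gave 0.23. Kif21b read 6.57, 6.96 and 6.88 against 6.74, 6.50 and 6.11, a difference of -0.35 with overlap (-0.18 without Sox2cKO replicate 3). Its other tested probe set gave 0.05, however. Without Sox2cKO replicate 1 Kif21b had an unadjusted p of 0.0433 in limma, with 382 of 13222 genes under 0.05. It did not pass after adjustment. Kif24, which caps the mother centriole and holds back cilium formation, read 6.11, 6.16 and 6.14 in CTRL and 6.02, 5.96 and 5.88 in Sox2cKO. Its groups did not overlap (3.12% of all genes in this direction). The difference was -0.18 (standard error 0.11, exact permutation p 0.1), and the other tested probe set of Kif24 gave -0.14. Kif7, a regulator of Hedgehog signalling at the cilium tip, differed by -0.05 and Kif9, of motile cilia, by 0.08. Kif2a, a microtubule depolymerase like Kif2c, differed by -0.04 in its representative probe set and by 0.16 to 0.48 in its 3 other tested ones.

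**Figure D4:**
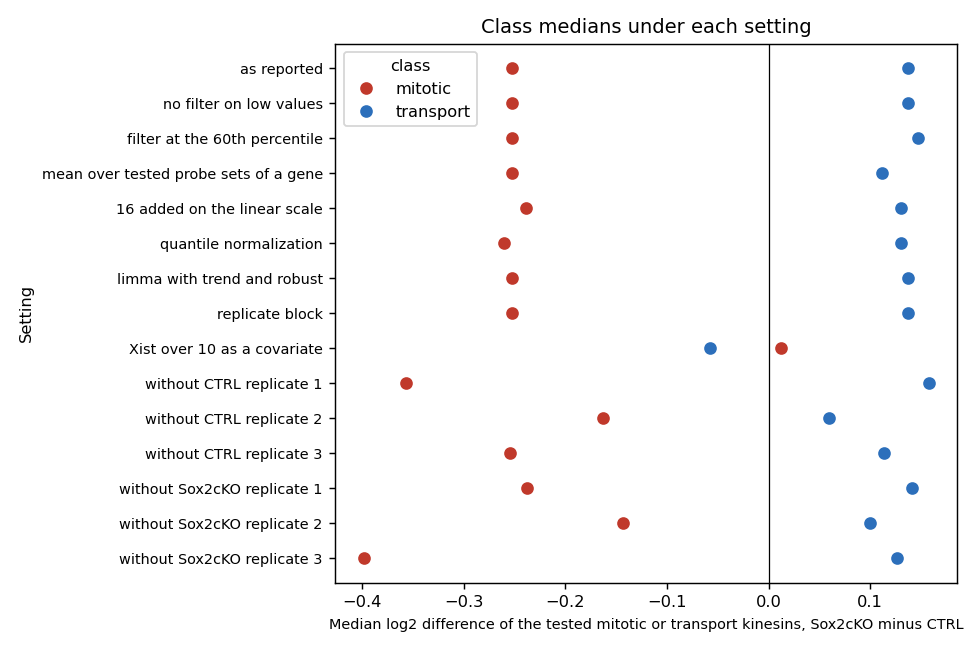
Median log2 difference (x axis, Sox2cKO minus CTRL) of the tested mitotic and transport kinesins under each processing setting (y axis); each point is 1 class under 1 setting. The mitotic median lies between -0.40 and -0.14 except with the Xist covariate, where it is 0.01 and the transport median is -0.06.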

How the data were processed

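The authors deposited 1 table of log2 values per probe set, read as log2 from their range, for 3 CTRL and 3 Sox2cKO arrays. Per the submitters' processing notes R 2.14.0 was used; how background was corrected and probe sets were summarised and normalized is not given in the sources used here. Array medians were 5.42 to 5.46, so a shift shared by most genes would not be seen, and differences near background are understated.

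Of 45101 probe sets, 34945 had 1 gene symbol in the platform annotation and only those were used; 932 with several genes and 9160 unnamed were left out. Symbols were checked through Entrez identifiers against RefSeq (GRCm38.p6), and 0 needed updating. After the intensity filter 13222 genes entered a two-sided test of Sox2cKO minus CTRL by lmFit and eBayes of limma 3.58.1, run without a trend under R 4.3.3, with Benjamini-Hochberg adjustment over all genes and a threshold of 0.05. The procedure was tested on simulated data. Class medians and array means are descriptions without a test. Members, classes and lists were chosen with earlier results of these data known, and the promoter motifs after the values were seen.

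Array values are given for all tested mitotic kinesins, for the 5 transport and 5 other kinesins of smallest unadjusted p, for Kif5b (chosen after its values were seen), and for some of the 3 genes of smallest p that are named from each list. The labels number replicates 1 to 3 in both groups, and the design text speaks of 3 biological experiments; beyond that nothing says what a number marks, so p-values measure the spread between these arrays. Same-numbered arrays deviated together (correlations across genes 0.206 to 0.288, against -0.333 to 0.0636 for other pairs). Each gene was first centred within its group. An array's covariances with the 3 arrays of the other group then sum to 0. Positive values for same-numbered pairs therefore force lower ones for other pairs, and the contrast is partly fixed by the centring. The reported limma and permutation tests did not use the numbers. The numbers entered only the differences taken within each number and the replicate block, which was an alternative setting. Alternatives were the filter, averaging of probe sets, 16 added on the linear scale, quantile normalization, limma with trend and robust variances, the replicate block, an Xist covariate and leaving out each array. The number of arrays limits the precision.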

Additional observations from a re-analysis of the deposited data

How the results depend on the processing

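No kinesin gene passed the adjusted threshold under any of the 14 alternatives, and 379 of 402 values kept their sign. That count includes the changed filters, limma with trend and robust variances, and the replicate block. These settings left each member's probe set and difference unchanged, so its sign could not turn there. With 1 array of each group per number, the replicate block cannot change a difference (mitotic median -0.25). In limma it changed no call (lowest adjusted p of a member 0.979) and raised the genes with an unadjusted p under 0.05 from 354 to 656. The number of lower mitotic kinesins was 9 in the reported setting. Without a filter on low values it was 11 of 11, but the added Kif14 (-0.068) and Kif15 (-0.040) had failed that filter. With the Xist covariate it was 3 of 9. That covariate also gave 1 gene past the threshold over all genes (0 as reported), a transport median of -0.058, and turned these differences: Kif18a 0.22, Kif18b 0.14, Kif20a 0.016, Kif20b 0.012, Kif22 0.0013, Kif23 0.013, Kif7 0.062, Kif1b -0.090, Kif5b -0.10, Kif13a -0.22 and Kif16b -0.10. Averaging probe sets turned Kif2a to 0.19. Leaving out 1 array at a time, 0 to 5 genes passed over all genes. The 5 passed without CTRL replicate 1, where both remaining controls had high Xist. They were Xist, Eif2s3y, Kdm5d, Uty and Sox2, none a kinesin. The transport median ranged from 0.060 to 0.16. The differences of genes that turned sign ranged from -0.27 to 0.0024 for Kif1a, -0.080 to 0.22 for Kif1b, -0.032 to 0.13 for Kif1c, -0.14 to 0.026 for Kif2a, -0.14 to 0.069 for Kif7, -0.38 to 0.032 for Kif18a, -0.39 to 0.0073 for Kif18b and -0.82 to 0.028 for Kif26b. Apart from the arrays left out, the cause of these changes was not tested. Kif14 and 5 others of the 8 untested members never exceeded the intensity filter, so their differences could not be read.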
